A study of Mus musculus with 7 samples.

Results

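The epithelial and mesenchymal state of EMT6 breast carcinoma was examined through 10 genes, 4 epithelial (Krt8, Krt18, Cdh1 and Epcam) and 6 mesenchymal (Cdh2, Vim, Snai1, Snai2, Twist1 and Zeb1), out of 53465 genes measured. The genes were chosen by name for their known roles, with earlier results of these data known. All 10 were high enough in the primary tumors to be tested. EMT6 cells come from a mouse mammary carcinoma, and their tumors grew in the mammary fat pad of female Balb/c mice aged 6 to 8 weeks, after implantation of 500000 cells. The EMT6-P group held 3 tumors of the parental variant from mice given an isotype control antibody, and the EMT6-PTR group (named PDR in the sample labels) held 3 tumors, under αPD-L1, of a resistant variant taken from mice in which growth resumed after an initial delay by this antibody, which blocks the PD-L1 checkpoint protein. Whether these tumors were the first ones or grew from the variant after new implantation is not given in the sources used here. Both antibodies were given at 250 μg per mouse every 3 days until the institutional endpoint, so the variant and the antibody cannot be told apart in this comparison. One further library came from an EMT6-PTR metastasis under αPD-L1, of a site that the labels do not name, and it has no replicate. All 7 libraries were made from polyA RNA of whole tissue, which holds carcinoma cells together with host fibroblasts, vessels and leukocytes.

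Epithelial cells are held together by E-cadherin (Cdh1) at adherens junctions, carry the adhesion molecule Epcam on their surface, and build their intermediate filaments from keratin pairs, of which Krt8 and Krt18 are the pair of simple epithelia. Mesenchymal cells build these filaments from vimentin (Vim) and often use N-cadherin (Cdh2) instead of E-cadherin. In epithelial-mesenchymal transition, the transcription factors Snai1, Snai2, Twist1 and Zeb1 bind E-box motifs and repress epithelial genes, and carcinoma cells can hold both programs at once.

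The E-box most closely tied to Snai1, Snai2 and Zeb1 reads CACCTG, or CAGGTG on the other strand. The RefSeq table used here (build GRCm38.p6) gave promoter windows, 250 bases before to 50 after the gene start in that table. Those of Krt18, Epcam, Vim, Snai1 and Twist1 are described here, and Cdh1 and Snai2 had no entry. For Krt18 and Vim, the RefSeq gene start differs from the start of the gene span given further below. The Vim window, chr2:13574061-13574360, lies inside the Vim span. The motif was found on either strand in the windows of Krt18, Epcam and Snai1, and it lies in 20.2% of all 32851 windows of the same length. Its surroundings are shown because these windows held the letters, with the motif in capitals, its first base counted from the gene start, and each stretch read 5′ to 3′ on the strand of the gene.
Krt18, chr15:102027990-102028019, plus strand, motif at -214: aggggctaacacCACCTGctatcctttgtg
Epcam, chr17:87635780-87635809, plus strand, motif at -187: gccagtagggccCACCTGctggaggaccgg
Epcam, chr17:87635948-87635977, plus strand, motif at -19: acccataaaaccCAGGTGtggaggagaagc
Snai1, chr2:167538057-167538086, plus strand, motif at -126: gcagcccaggcgCACCTGctccggtctcag
Epcam held 2 motifs, beside 2.88% of all windows with 2 or more, and the windows of Vim and Twist1 held none. A match describes letters in the window, and no binding was measured.

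The libraries held 20430110 to 25213472 estimated counts. Levels of one gene across libraries are given as CPM, which are counts divided by library size on an upper-quartile scale, and the standard error of a fold change is that of the edgeR fit. One transcript, CT010467.1, took 13.8% of the counts of EMT6-PTR replicate 2 (95% Wilson interval 13.8 to 13.9) and 0.433% to 1.35% in the other libraries. EMT6-PTR replicate 3 stood apart from the other primary tumors: it lay outside their range for 67.2% of the 15645 genes tested, and the spread within EMT6-PTR was wider than within EMT6-P, with a common dispersion of 0.246 against 0.0266. Fold changes are therefore given with and without it. The labels do not say whether replicates came from separate mice. The study's legend treats replicates as technical by default, and it gives n = 3 for these data without calling them biological. Each primary library is called a tumor here, but separate tumors are not established. The p-values therefore measure the spread between these samples.

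Both keratins and vimentin were abundant in the primary tumors, whereas E-cadherin, Epcam and N-cadherin were low. Levels of different genes are compared only per length, as CPM per kilobase of exon, scaled over all genes with a known exon length. In EMT6-P, Krt8 stood first at 2221 ± 118 (SD, n = 3) and Vim next at 2114 ± 120, and these overlapped between tumors, with Vim ahead in replicate 2. Krt18 followed at 646 ± 43.3. The transition factors were lower, and Snai1 led them at 88.9 ± 16.2, above Twist1 at 40.5 ± 16.0 and Snai2 at 27.4 ± 5.28, of which Twist1 and Snai2 overlapped. Epcam reached 9.59 ± 2.33 and Zeb1 8.62 ± 1.80, and these overlapped as well. Cdh1 stood at 3.76 ± 0.659 per length, above only Cdh2 at 0.226 ± 0.126, so that the carcinoma keratins were high in tissue in which the transcript of the main epithelial cadherin was low. The per-length ratio of Krt8 to Cdh1 was 587, 686 and 529 in EMT6-P replicates 1 to 3 and 444, 415 and 347 in EMT6-PTR. Krt18, Cdh1 and Cdh2 kept ranks 3, 9 and 10 in all 6 primary tumors. The plot of levels per length shows this order.

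**Figure D1:**
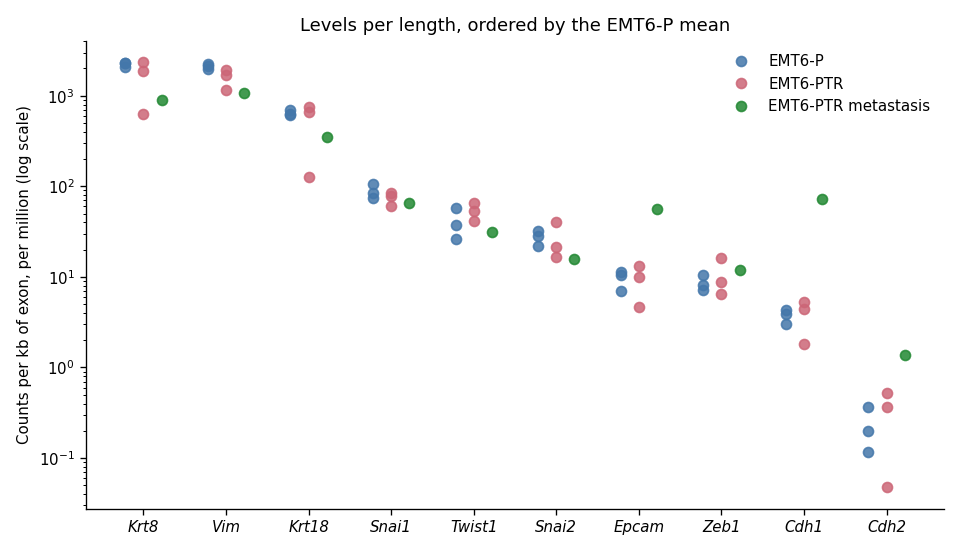
Level per length of the 10 genes in every library, on a log axis in CPM per kilobase of exon, ordered by the EMT6-P mean; each point is 1 library. Krt8 and Vim lie together at the top, Cdh1 and Cdh2 are the lowest in primary tumors, and the metastasis lifts Cdh1 to 71.7 and Epcam to 56.4.

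No epithelial or mesenchymal gene passed the test between EMT6-PTR and EMT6-P tumors. By the quasi-likelihood test of edgeR, adjusted by Benjamini-Hochberg over 15645 genes, 0 of the 10 reached an adjusted p of 0.05, beside 0.0% of all genes, whose smallest adjusted p was 0.421. At an unadjusted p under 0.05 the count was also 0 of 10, beside 11.4% of all genes tested (1786 genes; 5.84% higher and 5.57% lower). No fold change of the 10 reached 2-fold, beside 6.27% of all genes higher and 1.29% lower. DESeq2 called 281 genes in all (0.882% of genes higher and 0.914% lower), with none of the 10 among them, but it gave no adjusted p to 1951 genes, Cdh2 included, so 9 of the 10 could have been called. The median log2 fold change was -0.24 over the 4 epithelial genes and 0.05 over the 6 mesenchymal genes, beside 0.03 over all genes tested. A gene that did not pass is not shown to be equal between groups, as the standard errors show.

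**Figure D2:**
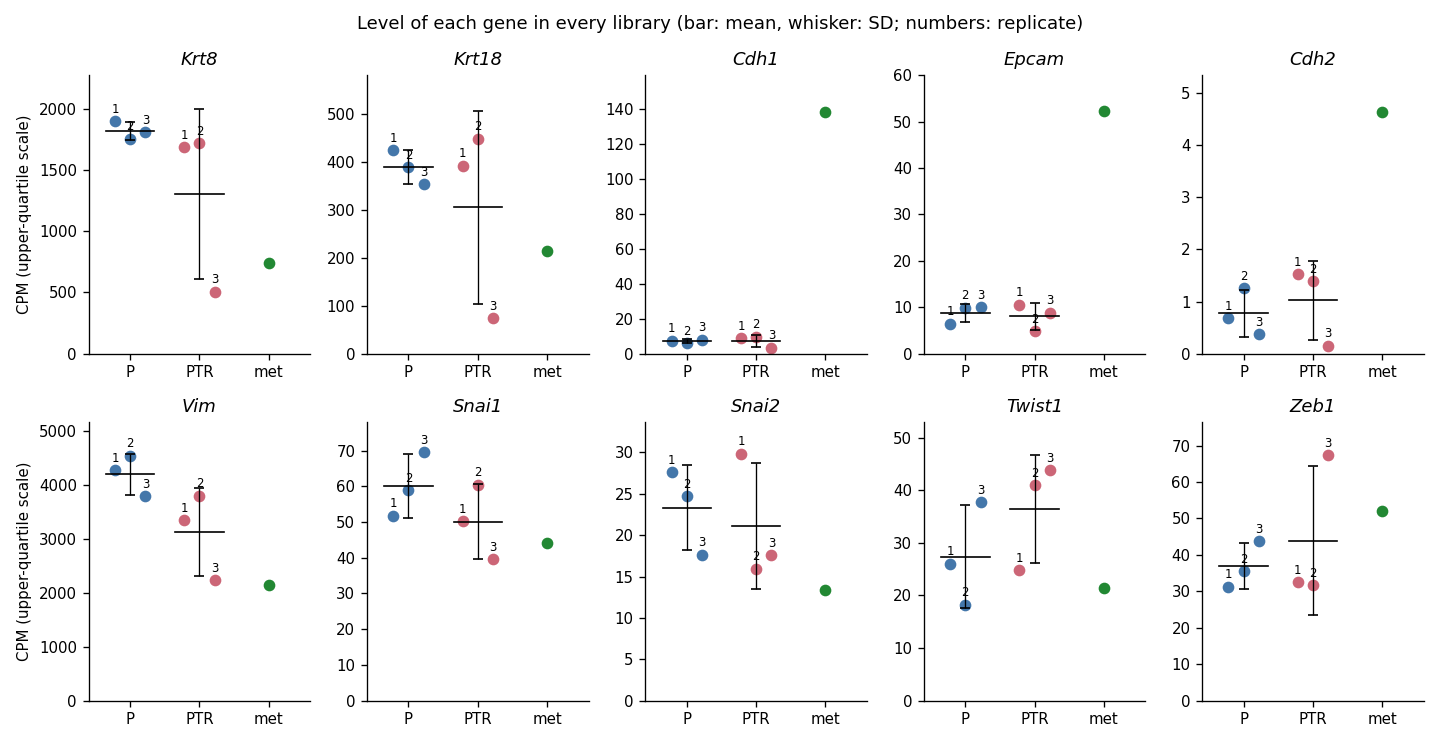
CPM of each gene in the 3 EMT6-P tumors (blue), the 3 EMT6-PTR tumors (red) and the EMT6-PTR metastasis (green), each panel on its own linear axis from 0. Points are single libraries with the replicate number, bars are means and whiskers SD (n = 3); EMT6-PTR replicate 3 is the lowest primary tumor for Krt8, Krt18, Cdh1, Cdh2, Vim and Snai1, and the metastasis lies far above all primary tumors for Cdh1 and Epcam.

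Krt8, the type II keratin of simple epithelia (ENSMUSG00000049382, chr15:101996698-102004482, minus strand, build GRCm38 as for all genes here), stood at 1898, 1755 and 1806 CPM in EMT6-P tumors and at 1685, 1720 and 505 CPM in EMT6-PTR. The first 2 EMT6-PTR tumors lay just under the EMT6-P range, and the third was 3.60-fold under the EMT6-P mean. The log2 fold change was -0.48 (SE 0.44, edgeR adjusted p = 0.661) and shrank to -0.10 without EMT6-PTR replicate 3. The groups did not overlap on this scale or with TMM scaling, as for 11.8% of all genes tested in this direction and 21.3% in either, but they overlapped on library totals and per length. In tissue, fewer carcinoma cells and less keratin RNA per cell cannot be told apart, which holds for every gene below. Krt8 counts are partly fractional, since RSEM divides reads that also match near-identical copies elsewhere in the genome, and its level is uncertain to that extent.

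Krt18, the type I partner with which Krt8 assembles (ENSMUSG00000023043, chr15:102028180-102032027), lies beside it on chromosome 15 and gave 424, 389 and 354 CPM in EMT6-P. EMT6-PTR tumors had 392, 449 and 73.8 CPM, so replicates 1 and 2 lay within or above the EMT6-P range. Replicate 3 was 5.28-fold under the EMT6-P mean. The log2 fold change of -0.35 (SE 0.59, edgeR adjusted p = 0.817) became 0.11 without it. The per-length ratio of Krt8 to Krt18 was 3.28, 3.31 and 3.75 in EMT6-P and 3.15, 2.81 and 5.03 in EMT6-PTR, so Krt18 lay further under its EMT6-P level than Krt8 did in replicate 3.

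Cdh1, which encodes the adherens junction protein E-cadherin (ENSMUSG00000000303, chr8:106603351-106670246), was measured at 7.55, 5.98 and 7.97 CPM in EMT6-P and 8.86, 9.69 and 3.40 CPM in EMT6-PTR. EMT6-PTR held both the highest values and the lowest. Its log2 fold change was 0.03 (SE 0.41, edgeR adjusted p = 0.981), and without EMT6-PTR replicate 3 it was 0.37. These levels rest on 87 to 203 counts per tumor.

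Epcam, a surface adhesion molecule widely used to mark carcinoma cells (ENSMUSG00000045394, chr17:87635979-87651129), reached 6.48, 9.90 and 10.0 CPM in EMT6-P. EMT6-PTR tumors had 10.6, 4.79 and 8.83 CPM. Here replicate 2, not 3, was the lowest. Between groups, the log2 fold change was -0.12 (SE 0.35, edgeR adjusted p = 0.899), and it was -0.19 once EMT6-PTR replicate 3 was left out. The counts behind it were 86 to 242 per tumor.

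Among the mesenchymal genes, Vim (ENSMUSG00000026728, chr2:13573927-13582826), which encodes the filament protein of mesenchymal cells, stood at 4273, 4549 and 3794 CPM in EMT6-P and at 3355, 3802 and 2230 CPM in EMT6-PTR. EMT6-PTR replicate 2 lay within the EMT6-P range on this scale and the other EMT6-PTR tumors under it. On library totals and per length, the groups did not overlap and EMT6-PTR was lower. The log2 fold change was -0.43 (SE 0.24, edgeR adjusted p = 0.514), the smallest p of the 10 genes, and it was -0.23 without EMT6-PTR replicate 3.

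Cdh2, the N-cadherin gene (ENSMUSG00000024304, chr18:16588877-16809246), was close to the limit of detection, with 14, 27 and 8 counts in EMT6-P and 35, 25 and 4 in EMT6-PTR. These equal 0.682, 1.26 and 0.377 CPM against 1.53, 1.39 and 0.156 CPM. EMT6-PTR replicates 1 and 2 were the highest primary tumors and replicate 3 was the lowest. The log2 fold change of 0.39 had an SE of 0.83 (edgeR adjusted p = 0.862) and was 0.91 without replicate 3, and at these counts a difference could not be detected.

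Snai1, a zinc-finger repressor of Cdh1 (ENSMUSG00000042821, chr2:167538195-167542814), had 51.8, 59.0 and 69.6 CPM in EMT6-P and 50.3, 60.5 and 39.7 CPM in EMT6-PTR. Its groups overlapped, with a log2 fold change of -0.26 (SE 0.20, edgeR adjusted p = 0.599) that was -0.12 without EMT6-PTR replicate 3. Snai2, its relative Slug (ENSMUSG00000022676, chr16:14705852-14709385), had 27.6, 24.7 and 17.6 CPM in EMT6-P and 29.8, 15.9 and 17.6 CPM in EMT6-PTR. It also overlapped, at a log2 fold change of -0.14 (SE 0.30, edgeR adjusted p = 0.859) and of -0.024 without that tumor. The 2 Snail genes did not share an order among the tumors: EMT6-P replicate 3 was the highest for Snai1 and the lowest EMT6-P tumor for Snai2, and their per-length ratio ran from 2.10 to 4.92 across primary tumors.

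Twist1, a basic helix-loop-helix factor (ENSMUSG00000035799, chr12:33957671-33959829), gave 26.1, 18.3 and 37.8 CPM in EMT6-P and 24.8, 41.0 and 43.8 CPM in EMT6-PTR. EMT6-PTR replicates 2 and 3 lay above all EMT6-P tumors and replicate 1 within them. Its log2 fold change was 0.42 (SE 0.33, edgeR adjusted p = 0.610) and 0.26 without EMT6-PTR replicate 3. Zeb1, a zinc-finger repressor of epithelial genes (ENSMUSG00000024238, chr18:5591860-5775467), had 31.2, 35.6 and 43.8 CPM in EMT6-P and 32.6, 31.6 and 67.4 CPM in EMT6-PTR. Only replicate 3 exceeded the EMT6-P range for Zeb1. Its log2 fold change of 0.25 (SE 0.33, edgeR adjusted p = 0.758) turned to -0.20 without replicate 3.

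**Figure D3:**
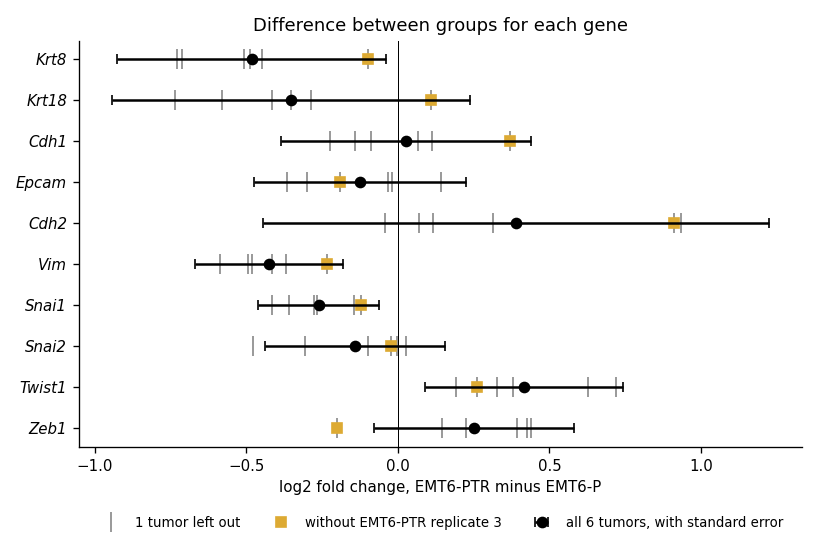
Log2 fold change between EMT6-PTR and EMT6-P tumors for each gene from edgeR (black points, bars are standard errors, n = 3 against 3), with the value after leaving out each tumor (grey ticks) and after leaving out EMT6-PTR replicate 3 (yellow squares). Krt8, Vim and Snai1 stay under 0 and Twist1 above 0 in each of these fits, while the other 6 genes cross 0 in at least 1 of them.

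EMT6-PTR replicate 3 was the tumor most often at the end of the range. It was lower than the other 5 primary tumors for Krt8, Krt18, Cdh1, Cdh2, Vim and Snai1 and higher for Twist1 and Zeb1, which is 8 of 10 genes outside the range, near the 67.2% for all genes (34.5% lower and 32.7% higher). EMT6-PTR replicate 1 was highest for Epcam, Cdh2 and Snai2 and lowest for 0 of 10 (16.6% and 13.6% of all genes), and replicate 2 was highest for Krt18 and Cdh1 and lowest for Epcam and Snai2 (16.0% and 18.7%). Relative to the EMT6-P mean on the log2 scale, replicate 3 differed by -1.85 for Krt8, by -2.39 for Krt18, by -1.05 for Cdh1 and by -0.91 for Vim. Twist1 was 0.74 higher on that scale, and Zeb1 0.88 higher. Snai1 was also lower, by a difference of -0.59, Snai2 differed by -0.38 and Epcam by 0.03. The per-length ratio of Zeb1 to Cdh1 was 8.84 in it, against 1.45 to 2.65 in the other 5 primary tumors. The ratio of Vim to Krt8 was 1.82, against 0.822 to 1.07.

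**Figure D4:**
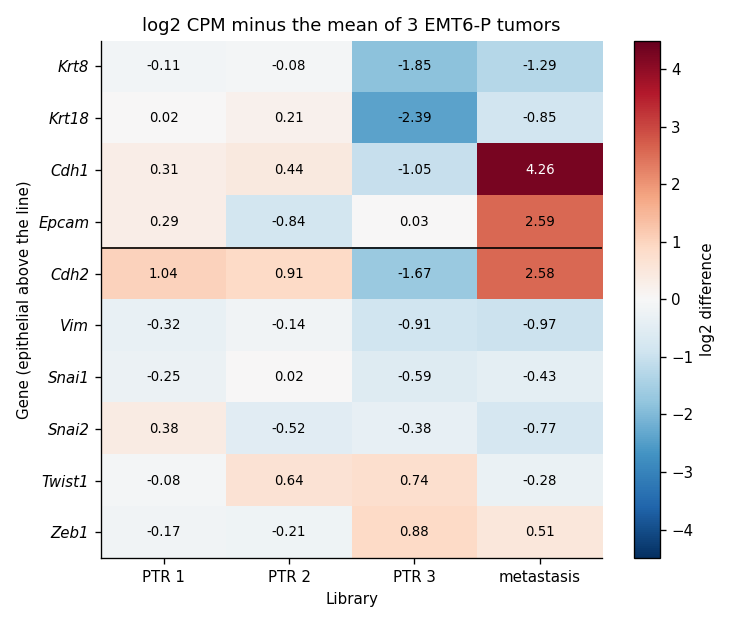
Log2 CPM of each gene in the EMT6-PTR tumors and the metastasis minus the mean of the 3 EMT6-P tumors; red is higher, blue is lower, and epithelial genes lie above the line. EMT6-PTR replicate 3 is blue for Krt8 (-1.85) and Krt18 (-2.39) and red for Zeb1 (0.88), and the metastasis is red for Cdh1 (4.26), Epcam (2.59) and Cdh2 (2.58).

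Other genes also set this tumor apart. Over 14 fibroblast markers, the summed level was 27580 CPM in EMT6-PTR replicate 3. It was 8009 and 11195 CPM in the other EMT6-PTR tumors and 6741 to 9343 CPM in EMT6-P. Of the 14, 8 were highest in replicate 3 among the primary tumors and 5 lowest, beside 32.7% and 34.5% of all genes tested. Dcn, the matrix proteoglycan decorin, stood at 3346 CPM against 32.2 to 104 CPM in the other 5 primary tumors, and Col3a1, a fibrillar collagen, at 9088 CPM against 734 to 1998. Thy1, another fibroblast marker, was lowest in it at 6.68 CPM against 63.2 to 114 (Thy1 and the next genes in this paragraph were chosen after their values were seen). The smooth muscle actin gene Acta2 was at 54.2 CPM against 508 to 684 CPM, and Tagln at 3.91 CPM against 67.1 to 105. Summed leukocyte markers were 1202 CPM against 2039 to 2790, with 9 of 10 lowest in it, beside 34.5% of all genes tested. Krt14, a basal keratin, was 19.0 CPM against 189 to 524. The part of tissue composition in the 10 genes was not tested.

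The metastasis, which is a single library with no test, carried much more Cdh1 and Epcam than any primary tumor. Cdh1 stood at 138 CPM, 14.3-fold above the highest primary tumor, on 3461 counts. Epcam was 52.2 CPM, 4.95-fold above the highest. Cdh2, of the mesenchymal genes, was also higher, at 4.64 CPM, 3.04-fold above the highest primary tumor, on 116 counts. Vim at 2144 CPM and Snai2 at 13.4 CPM lay under all 6, but Vim was close to the 2230 CPM of EMT6-PTR replicate 3. Thus 5 of the 10 genes lay outside the range of the primary tumors, beside 45.0% of all genes tested (20.9% above and 24.1% below). At 2-fold against the EMT6-PTR mean, 3 of the 10 were higher and 0 lower, beside 12.4% and 8.58% of all genes.

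The keratins did not follow the cadherin. Krt8 was 743 CPM and Krt18 215 CPM in the metastasis, both under every primary tumor except EMT6-PTR replicate 3. The per-length ratio of Krt8 to Cdh1 was 12.5, against 347 to 686 in primary tumors. Snai1 at 44.3 CPM, Twist1 at 21.5 CPM and Zeb1 at 52.0 CPM lay within the primary range, and the per-length ratio of Zeb1 to Cdh1 was 0.167, against 1.45 to 8.84 in primary tumors.

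Lung epithelium genes were present in this library in bulk. The 12 lung epithelium markers summed to 9477 CPM, 233-fold above the highest primary tumor, and to 14.7 to 40.7 CPM in primary tumors. All 12 were above all 6 primary tumors. Only 5 of the 12 were high enough in primary tumors to be tested, so this count cannot be set beside a share of all genes tested. The surfactant genes Sftpc at 2348 CPM and Sftpa1 at 807 CPM, the club cell secretoglobin Scgb1a1 at 3007 CPM, and Nkx2-1 at 26.5 CPM, which is the lung and thyroid lineage factor, were at or near 0 in every primary tumor (0 to 1.07 CPM; Nkx2-1 and Scgb3a2 had no count in any, which at 3 counts allows up to 0.167 CPM). These markers were chosen after their values were seen. Endothelial markers summed to 1347 CPM against 189 to 278 CPM, and 9 of 10 were above all primary tumors, beside 20.9% of all genes tested. Sample labels call the metastasis library breast tumor tissue. The 12 mammary gland epithelium markers summed to 85.2 CPM in it and to 38.4 to 561 CPM in primary tumors. Of these, the milk protein genes Csn1s1, Csn2 and Wap had no count in any of the 7 libraries (chosen after their values were seen). Their absence therefore does not set the metastasis apart from the primary tumors. The part of lung and vessel RNA in the levels of Cdh1, Epcam and Cdh2 in the metastasis was not tested.

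**Figure D5:**
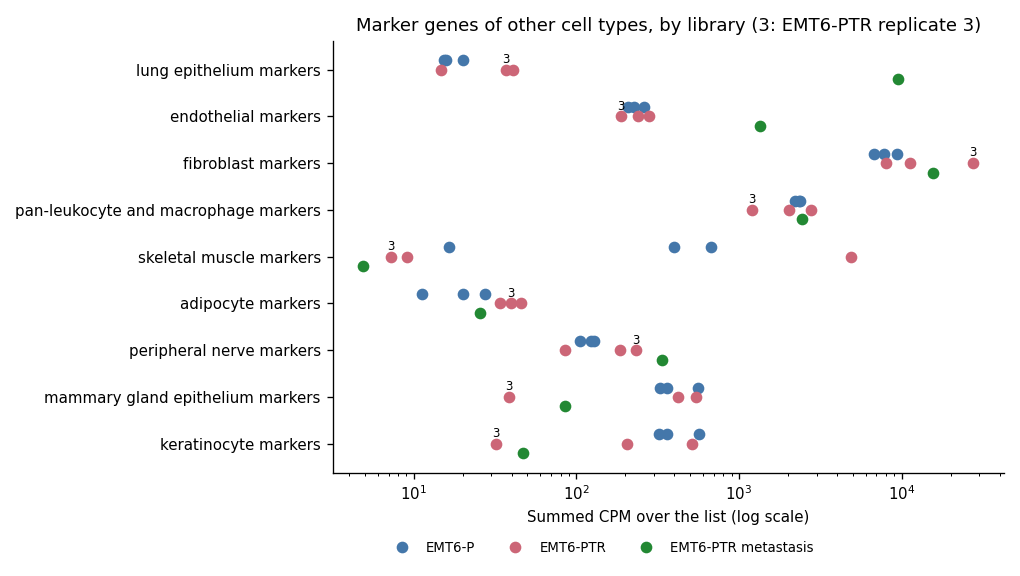
Summed CPM of the marker genes of 9 other cell types in each library, on a log axis; points are single libraries and the number 3 marks EMT6-PTR replicate 3. The metastasis stands apart for lung epithelium (9477 CPM) and endothelium (1347 CPM), EMT6-PTR replicate 3 for fibroblasts (27580 CPM) and leukocytes (1202 CPM), and EMT6-PTR replicate 1 for skeletal muscle (4886 CPM).

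As a single description of state, the mean log2 CPM of the 4 epithelial genes minus that of the 6 mesenchymal genes was 1.01, 0.92 and 1.11 in EMT6-P (mean 1.01 ± 0.10) and 1.04, 0.83 and 0.02 in EMT6-PTR (mean 0.63 ± 0.54). EMT6-PTR replicate 1 lay within the EMT6-P values and the other EMT6-PTR tumors under them, and the difference of -0.38 between the means was -0.08 without EMT6-PTR replicate 3. The metastasis stood at 2.08. Its epithelial mean was 7.53 against 6.35 in EMT6-P. Against the EMT6-P mean, Cdh1 (log2 difference 4.26) and Epcam (2.59) were higher, and Krt8 (-1.29) and Krt18 (-0.85) lower. The mesenchymal mean of the metastasis, 5.44, was near the 5.34 of EMT6-P. There Cdh2 (2.58) and Zeb1 (0.51) were higher, and Vim (-0.97), Snai1 (-0.43), Snai2 (-0.77) and Twist1 (-0.28) lower. The part of lung RNA in this score was not tested.

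Further genes of the same programs were read through lists chosen by role. Of 7 simple keratins, 5 could be tested and 0 passed, and those other than Krt8 and Krt18 were low in primary tumors. Krt7, a keratin of simple and ductal epithelia, was 1.61, 1.92 and 3.49 CPM in EMT6-P and 6.15, 11.03 and 2.03 CPM in EMT6-PTR (log2 fold change 1.45, SE 0.64, edgeR adjusted p = 0.449; log2 1.87 without EMT6-PTR replicate 3) and 389 CPM in the metastasis. Krt19, another ductal keratin, was 2.34 to 10.97 CPM in primary tumors and 172 CPM in the metastasis.

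Basal keratins, which mark the outer layer of mammary ducts and the base of the epidermis, also varied between tumors. Krt14 was 316, 355 and 524 CPM in EMT6-P and 504, 189 and 19.0 CPM in EMT6-PTR (log2 fold change -0.75, SE 0.95, edgeR adjusted p = 0.750; log2 -0.20 without EMT6-PTR replicate 3), and 30.3 CPM in the metastasis. Krt17 was 9.26, 3.64 and 6.70 CPM in EMT6-P and 31.5, 226 and 16.5 CPM in EMT6-PTR, without overlap. Its log2 fold change was 3.80 (SE 1.06, edgeR adjusted p = 0.421; log2 4.29 without EMT6-PTR replicate 3), and DESeq2 called it at an adjusted p of 0.00245. Krt5, the usual partner of Krt14, had 0.731 to 26.9 CPM in primary tumors.

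Of 27 junction and polarity genes, 19 could be tested, and 0 passed. Their median log2 fold change was -0.23, beside 0.03 over all genes tested. The tight junction scaffold Patj had the smallest p, at a log2 fold change of 0.70 (SE 0.19, edgeR adjusted p = 0.421; log2 0.51 without EMT6-PTR replicate 3), with EMT6-PTR tumors at 19.5, 17.8 and 26.3 CPM above EMT6-P at 12.8, 13.7 and 12.7 CPM. In the metastasis 8 of the 19 tested genes lay above every primary tumor and 4 below, beside 20.9% and 24.1% of all genes tested. The 4 below were Dsp, Dsc2, Pkp1 and Tjp1. Dsp was 120 CPM against 165 to 362 CPM in primary tumors, and Dsc2 2.32 CPM against 8.55 to 29.1 CPM. Also above every primary tumor were 7 of the 8 genes too low there to be tested. The filter left these 8 out for being low there, so their count cannot be set beside that share. Among them were the claudins Cldn3 at 51.8 CPM and Cldn7 at 21.5 CPM. The polarity gene Crb3, at 21.3 CPM, had no count in any primary tumor (genes chosen after their values were seen). Cgn, which encodes the tight junction protein cingulin and is named by the smallest p rule, was 60.7 CPM there and 0.430 to 2.01 CPM in primary tumors. In EMT6-PTR replicate 3, 11 of the 19 tested genes were lower than in the other primary tumors, beside 34.5% of all genes.

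Of 26 epithelial regulators and membrane proteases, 16 could be tested and 0 passed. Gata3, a luminal mammary factor, had a log2 fold change of 1.55 (SE 0.62, edgeR adjusted p = 0.433; log2 0.99 without EMT6-PTR replicate 3) on 0.487 to 4.53 CPM. The splicing regulator Esrp1 was at most 0.377 CPM in primary tumors and 12.5 CPM in the metastasis, Grhl2 at most 0.156 CPM and 4.84 CPM, and Foxa1 had no count in the primary tumors and 10.7 CPM in the metastasis (chosen after their values were seen). In the metastasis 9 of the 16 tested genes lay above every primary tumor and 1 below, beside 20.9% and 24.1% of all genes tested. Also above every primary tumor were 9 of the 10 genes too low there to be tested. The filter left these 10 out for being low there, so their count cannot be set beside that share. Like Cdh1 and Epcam, the genes that lay above did so in the library that held the lung markers, whose part was not tested.

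Of 26 transition regulators, which include Snai1, Snai2, Twist1 and Zeb1, 22 could be tested and 0 passed, and the median log2 fold change was 0.09. Twist2, the close relative of Twist1, stood at 4.39, 11.6 and 9.25 CPM in EMT6-P and 2.53, 4.07 and 0.586 CPM in EMT6-PTR (log2 fold change -1.82, SE 0.71, edgeR adjusted p = 0.433; log2 -1.35 without EMT6-PTR replicate 3). Tgfb3, a TGF-β ligand that can drive the transition, was 59.8, 70.4 and 86.4 CPM in EMT6-P and 100.2, 89.8 and 118 CPM in EMT6-PTR, without overlap (log2 fold change 0.51, SE 0.19, edgeR adjusted p = 0.427; log2 0.40 without EMT6-PTR replicate 3). Groups that do not overlap occur in 9.52% of all genes tested upward. EMT6-PTR replicate 3 was highest for 10 of the 22 tested and lowest for 7, beside 32.7% and 34.5% of all genes, so 17 of 22 lay outside the range, near the 67.2% of all genes. In the metastasis 0 of the 22 lay above every primary tumor and 9 below, beside 20.9% and 24.1% of all genes tested.

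Among 30 mesenchymal adhesion and cytoskeleton genes, including Vim and Cdh2, 29 could be tested and 0 passed, with a median log2 fold change of -0.21. Mmp2, a matrix protease, was 93.2, 140 and 138 CPM in EMT6-P and 114, 178 and 1000 CPM in EMT6-PTR, and replicate 3 stood far above the others (log2 fold change 1.80, SE 0.81, edgeR adjusted p = 0.451; log2 0.24 without EMT6-PTR replicate 3). In that tumor 18 of the 29 were lowest and 4 highest of the primary tumors, beside 34.5% and 32.7% of all genes. In the metastasis 4 of the 29 lay above every primary tumor and 7 below, beside 20.9% and 24.1% of all genes tested. All 8 cadherin partners were tested and 0 passed. Afdn, the adherens junction linker afadin, had 87.7, 86.1 and 91.5 CPM in EMT6-P and 115, 119 and 142 CPM in EMT6-PTR (log2 fold change 0.50, SE 0.14, edgeR adjusted p = 0.421; log2 0.40 without EMT6-PTR replicate 3). DESeq2 alone called it, at an adjusted p of 0.0414. Ctnnb1, the β-catenin gene, was 671, 805 and 736 CPM in EMT6-P and 628, 853 and 1452 CPM in EMT6-PTR (log2 fold change 0.41, SE 0.31, edgeR adjusted p = 0.603; log2 0.0051 without EMT6-PTR replicate 3).

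The nuclear filament gene Lmna, kin to keratins and vimentin, stood at 580, 665 and 642 CPM in EMT6-P and 473, 421 and 285 CPM in EMT6-PTR, without overlap. Its log2 fold change was -0.68 (SE 0.22, edgeR adjusted p = 0.423; log2 -0.49 without EMT6-PTR replicate 3). It was the smallest p among 8 tested assembly partners and kin of Krt8 and Vim, of which 0 passed.

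The closest profiles over the 7 libraries differed from gene to gene. Likeness was measured as the root mean square difference of log2 CPM after centring each gene on its own mean, as a description. Krt8 was most like Spire2 (0.08), Ywhag (0.08) and Srsf7 (0.10). Krt18 was nearest to Tubb6 (0.13), Gm6781 and Kctd11, and Cdh1 to Lyz1 (0.20), Prrg3 and Gramd2. Lyz1 encodes a lysozyme. Epcam lay nearest to Frat1 (0.22), Adgrg3 and Entpd3, and Vim to Hsd17b12 (0.06), Gm12892 and Yars. For the factors, Snai1 was nearest to AI467606 (0.08), Pigq and Ppp2r2a, Snai2 to Usp27x (0.15), Gm13140 and Taco1, Twist1 to Glis2 (0.18), Gm9320 and Efna2, and Zeb1 to Lrp11 (0.07), Setmar and Gm20605. None of the 10 genes was among the 3 nearest of another, and Krt8 and Krt18 lay 0.29 apart. The points share libraries, so EMT6-PTR replicate 3 and the metastasis weigh in each likeness.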

How the data were processed

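Bulk tumor RNA was sequenced by the authors from TruSeq Stranded mRNA libraries. Per the labels and the study's methods, the authors checked reads with FastQC 0.11.5, aligned them with STAR 2.6.0a to mouse GRCm38 and quantified genes with RSEM 1.3.1. The table, as the authors deposited it, holds the estimated counts per gene that RSEM made, not normalized, of which 13.5% to 15.6% per library were fractional; they were rounded. RSEM splits reads between near-identical genes, so such levels are uncertain. Symbols and exon lengths came from a GENCODE annotation of GRCm38 for 53274 of 53465 genes.

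Groups came from the sample labels. EMT6-PTR and EMT6-P (3 tumors each) were compared in edgeR 4.0.16 (filterByExpr, upper-quartile scaling, quasi-likelihood test, Benjamini-Hochberg adjustment over 15645 genes, threshold 0.05) in R 4.3.3. The metastasis was given as values. Log2 CPM used a prior count of 2. Alternatives were TMM, library totals, DESeq2 1.42.0, limma-voom (limma 3.58.1), other filters, the replicate number as a block, the metastasis as an additional group and leaving out each tumor. Fits were tested on simulated data. Intervals and count limits cover counting error only.

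Members and lists were chosen with earlier results of these data known. Named were all 10 genes, up to 3 tested genes per list with the smallest p, and the 3 genes of nearest profile per member; others are marked as chosen after their values were seen. The nearest profiles of Cdh2 and the promoter windows of Krt8, Cdh2 and Zeb1 are not reported here.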

Additional observations from a re-analysis of the deposited data

How the results depend on the processing

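No gene of the 10 passed the threshold under any setting that gave it an adjusted p (Cdh2 had none in DESeq2), and their adjusted p ranged from 0.333 to 0.999 over these settings. The number of genes called over the whole table was 0 with every edgeR and limma-voom setting and 281 with DESeq2; the cause was not tested. The sign of Cdh1 reversed on library totals (-0.011) and with limma-voom (-0.15), and that of Cdh2 with limma-voom (-0.048); Cdh2 could not be tested with at least 10 counts required in every tumor. Leaving out 1 tumor at a time gave 0 to 0 genes called and log2 fold changes of -0.22 to 0.37 for Cdh1, -0.043 to 0.93 for Cdh2, -0.37 to 0.14 for Epcam, -0.48 to 0.028 for Snai2, -0.74 to 0.11 for Krt18 and -0.20 to 0.44 for Zeb1, so these 6 changed sign. Krt8 (-0.73 to -0.10), Vim (-0.59 to -0.23), Snai1 (-0.41 to -0.12) and Twist1 (0.19 to 0.72) did not.

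With the replicate number as a block, 0 genes were called, as without it, unadjusted calls went from 1786 to 1268, and Cdh1 reversed to -0.086. Deviations of same-numbered tumors correlated at 0.26, 0.25 and 0.04. For EMT6-P replicates 1 and 2, the EMT6-PTR tumor of the same number correlated most. EMT6-P replicate 3 correlated more with EMT6-PTR replicate 1 (0.10). Whether tumors of the same number share anything else was not tested.

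The depth of Cdh2, 4 to 35 counts per primary tumor, and 1 metastasis limit what these data can show.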
